A study of Drosophila melanogaster with 8 samples.

Results

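The cytosolic ribosomal protein genes of Drosophila melanogaster were examined for anti-GFP CUT&RUN peaks in wing imaginal discs. Members were the 92 protein-coding genes on the chromosome arms whose RefSeq symbol starts with RpL (54 genes) or RpS (38 genes), of 13922 protein-coding genes on the 6 arms. CUT&RUN tethers a nuclease to chromatin through an antibody and sequences the released fragments. The discs came from larvae whose endogenous zelda gene, coding for a transcription factor, was fused to GFP, and from w1118 larvae without any GFP, called wild type here. Each genotype was taken 2 days after damage and during normal development, giving the 4 groups Zelda-GFP damaged, Zelda-GFP undamaged, wild-type damaged and wild-type undamaged, with 2 libraries each. All 8 libraries received the same rabbit anti-GFP antibody, so peaks in wild-type discs are the antibody and assay background. The way of damaging, larval age and the number of pooled discs are not given in the sources used here. Peak lists hold no expression values, so the tissue label was not checked against marker genes.

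Cytosolic ribosomes translate nearly all nuclear-encoded messages, and each is built from a large subunit, whose proteins are named RpL, and a small subunit, whose proteins are named RpS. Most of these genes are short, are transcribed at high levels in growing cells, and are counted among the housekeeping genes. In flies many of them are Minute genes, in which loss of a single copy slows growth, and in wing discs such cells are outcompeted by wild-type neighbours. Zelda is a pioneer factor best known for opening chromatin when the embryonic genome is first transcribed.

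A gene was called hit in a list when a peak overlapped its span or the 500 bp on either side. In Zelda-GFP damaged discs, 18 and 24 of the 92 members were hit in replicates 1 and 2, or 19.6% and 26.1%. The same lists hit 16.4% and 17.7% of all protein-coding genes. In Zelda-GFP undamaged discs 7 and 0 members were hit (7.61% and 0.0%), against 7.76% and 2.98% of all genes. Wild-type damaged discs had 1 and 33 members hit (1.09% and 35.9%), against 5.27% and 22.3% of all genes. Wild-type undamaged discs had 0 and 18 members hit (0.0% and 19.6%), against 3.01% and 9.83% of all genes. The highest share of members, 35.9%, was thus in an untagged library, and replicates of the same group lay far apart in 3 of the 4 groups.

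**Figure D1:**
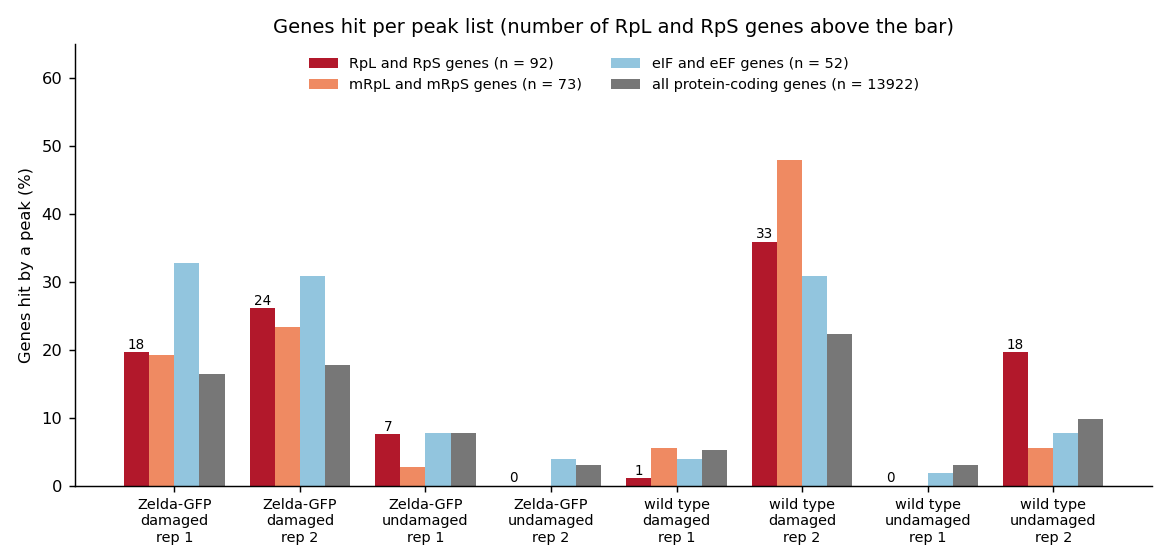
Percent of genes hit by a peak (vertical axis) in each of the 8 peak lists (horizontal axis) for the 92 RpL and RpS genes, 73 mitochondrial ribosomal protein genes, 52 initiation and elongation factor genes and all 13922 protein-coding genes; numbers above the first bar of each list count the RpL and RpS genes. The tallest red bar, 33 genes, is wild-type damaged replicate 2, and 3 lists have 0 or 1 member hit.

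The lists held 1698 to 3908 peaks on the arms, and each list with at most 1 member hit was among the 3 shortest. Background coverage, the lowest coverage that the caller expected in a list, stands in for depth and ran from 32.6 to 52.3 fragments per base. It was 38.0 in both Zelda-GFP damaged lists, 46.1 in wild-type damaged replicate 2 and 52.3 in wild-type damaged replicate 1, which had 1 member hit. The part of depth in the number of members hit was not tested, and differences with lists of equal length are given with each comparison.

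The first comparison set tagged against untagged discs. The mean share of members hit was 22.8% ± 4.61 in Zelda-GFP damaged discs and 18.5% ± 24.6 in wild-type damaged discs (SD, n = 2 each). The difference of 4.35 percentage points was smaller than the spread between the wild-type replicates, which lay on both sides of the Zelda-GFP values. It turned to -13.0 points without wild-type damaged replicate 1 and was 21.7 points without wild-type damaged replicate 2. Over all protein-coding genes the wild-type damaged replicates, at 5.27% and 22.3%, likewise lay on both sides of the Zelda-GFP values. The same difference was 3.23 points for all genes. With lists shortened to equal length by q-value it was 4.35 points for the members and 2.52 points for all genes. With the gene span alone it was 0.543 and 2.54 points, and with the summit in the window 2.72 and 3.15. There the members' difference was below that of all genes, and under the other planned window, overlap and filter settings it was above. In undamaged discs the means were 3.8% ± 5.38 for Zelda-GFP and 9.78% ± 13.8 for wild type. This difference of -5.98 points also lay within the replicate spread, and it was 3.8 points without wild-type undamaged replicate 2. For all genes it was -1.05 points. With lists of equal length it was -1.63 points for the members and -0.18 points for all genes.

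The second comparison set damaged against undamaged discs. Zelda-GFP damaged discs had 22.8% ± 4.61 of members hit and Zelda-GFP undamaged discs 3.8% ± 5.38. These lists did not overlap, since 18 and 24 members were hit after damage against 7 and 0 without it. The difference of 19.0 points compares with 11.6 points over all protein-coding genes, which were likewise hit more often in both damaged lists. With lists of equal length the difference was 10.3 points for the members and 6.01 for all genes, and with the gene span alone 9.78 and 8.02. With peaks of fold at least 3 it was 3.8 points for the members and 3.15 for all genes. In wild-type discs the means were 18.5% ± 24.6 after damage and 9.78% ± 13.8 without it, a difference of 8.7 points within the spread between replicates. That difference was -8.7 points without wild-type damaged replicate 2, -1.09 points without wild-type undamaged replicate 1 and 26.1 points without wild-type damaged replicate 1. Leaving out wild-type undamaged replicate 2 gave 18.5 points. With lists of equal length it was 4.35 points for the members and 3.3 for all genes, and with the gene span alone 2.17 and 4.52. Whether the damage difference itself differed between the genotypes was not tested.

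Members were hit in a few lists at most. Of the 92, 29 were hit in no list, 35 in exactly 1, 19 in 2, 8 in 3 and 1 in 4, and none in all 8 lists or in all 4 Zelda-GFP lists. Over all genes 60.8% were hit in no list, 18.6% in exactly 1, 5.26% in at least 4, 1.73% in all 8 and 2.44% in all 4 Zelda-GFP lists. No member was hit in both Zelda-GFP undamaged or in both wild-type undamaged lists, against 2.79% and 2.51% of all genes. Zelda-GFP undamaged replicate 2 and wild-type undamaged replicate 1 hit no member. These counts, and those for all 8 and all 4 Zelda-GFP lists, could therefore only be 0. The 63 members with any hit, 68.5%, compare with 39.2% of all genes, and the 28 members hit in at least 2 lists, 30.4%, with 20.6%. Members were spread over both genotypes, as 19 (20.7%) were hit in a Zelda-GFP list and no wild-type list, and 27 (29.3%) in a wild-type list and no Zelda-GFP list. The same rules took 11.3% and 14.4% of all genes. RpS3, RpL14, RpS12, RpL3, RpL11, RpS18 and RpS23 were among the members without a hit. Beyond the flank, RpS23 had peaks of fold 2.60 and 2.61 at 727 and 684 bp in Zelda-GFP damaged replicates 1 and 2. It also had one of fold 1.61 at 934 bp in wild-type undamaged replicate 2. RpL3 had peaks of fold 1.54 and 1.88 at 855 and 691 bp in wild-type damaged replicates 1 and 2. These 7 genes were picked from the 29 after their values were seen, and Minute loci were not compared as a set.

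In the damaged tag contrast, 6 members were hit in both Zelda-GFP damaged lists and in neither wild-type damaged list. That is 6.52% of the members, and 5.61% of all genes met the same rule, so the members' share was near the background. With the gene span alone the count was 2, namely RpS28a and RpS13, and 4.55% of all genes met the rule. The opposite rule, both wild-type damaged lists and neither Zelda-GFP damaged list, was met by none of the members and by 0.804% of all genes. Wild-type damaged replicate 1 hit only 1 member, so at most 1 could meet it. In undamaged discs 0 members met the rule in either direction, against 0.467% of all genes for the tag and 0.215% for the opposite rule. These counts could only be 0, since Zelda-GFP undamaged replicate 2 and wild-type undamaged replicate 1 hit no member. For damage within Zelda-GFP discs, 9 members (9.78%) were hit in both damaged lists and neither undamaged list, against 7.83% of all genes. The other direction had none, against 0.151%, and could have none for the same reason. Within wild-type discs RpLP2 alone (1.09%) was hit in both damaged and neither undamaged list, against 1.42% of all genes. It was the only member hit in wild-type damaged replicate 1. No member was hit in both wild-type undamaged lists and neither damaged one, where all genes gave 0.0934%. This count too was fixed at 0 by wild-type undamaged replicate 1.

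The 6 members of the damaged tag contrast were RpS19a, RpLP0-like, RpL28, RpS28a, RpS5a and RpL35, in falling order of their mean rank by fold within the lists. By the rule, none was hit in either wild-type damaged list. None was hit in the undamaged lists either, of which Zelda-GFP undamaged replicate 2 and wild-type undamaged replicate 1 hit no member at all. Fold here is the authors' linear ratio of summit coverage to locally expected coverage, read within a list because no common scale between lists was shown. Summit coverage in fragments was recovered from the authors' fold and p-value. Gene and peak positions are on the dm6 build, and the gene table gives no strand, so ends are called lower or higher by coordinate and exons and introns were not assigned.

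RpS19a encodes a small subunit protein whose human counterpart is mutated in Diamond-Blackfan anaemia. It lies on X from 16637894 to 16639249 and ranked highest of the 6, with folds of 3.33 in Zelda-GFP damaged replicate 1 and 5.02 in replicate 2. The summits held 129 and 195 fragments, where 38.0 were expected in each. The peaks reached from 16637143 to 16637411 and from 16636901 to 16637398, with summits 7 bp apart. Both summits stood inside a neighbouring gene, and the peaks stopped 483 and 496 bp short of RpS19a. The call rested on the last few bases of the 500 bp flank. Among members just outside it, RpS15Ab had a peak of fold 2.17 at 520 bp in wild-type damaged replicate 2 and RpS19b one of fold 1.74 at 550 bp in Zelda-GFP damaged replicate 1.

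RpLP0-like, a gene named for its likeness to the stalk protein RpLP0, lies on 2R from 10098518 to 10099590. Its peaks had folds of 2.64 and 3.08 in the Zelda-GFP damaged lists, with 110 and 144 fragments at the summits. Both began at 10099701, 111 bp beyond the higher end of the gene, and their summits were 43 bp apart inside the neighbour 14-3-3zeta. Outside the flank, a peak of fold 1.85 lay 755 bp from the gene in wild-type damaged replicate 2 and one of fold 1.79 lay 719 bp away in wild-type undamaged replicate 2. None of these peaks was over RpLP0-like itself.

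RpL28, of the large subunit, lies on 3L from 3220911 to 3222960. Folds were 2.80 and 2.54 in the Zelda-GFP damaged lists, with 117 and 129 fragments at the summits. The peaks began 111 and 419 bp beyond the higher end of the gene, on the side of eIF1, which encodes a factor of start codon selection, and the summit of replicate 2 was inside eIF1. Wild-type damaged replicate 2 had a peak of fold 1.70 at 835 bp. RpL28 was thus another member called through its flank.

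RpS28a, a small subunit gene of 304 bp on 3R from 30022345 to 30022648, was the only one of the 6 whose own span was covered in both lists. Folds were 2.36 and 2.15 with 91 and 83 fragments, and the peaks shared 643 bp. They also overlapped the windows of Axn, a component of the Wnt destruction complex, and of Mgat2, so the 3 genes could not be told apart as targets. The summit of replicate 1 was inside RpS28a, and that of replicate 2 was inside Mgat2, 271 bp from RpS28a.

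RpS5a and RpL35 were called in both lists from different places. RpS5a, of the small subunit, lies on X from 17143588 to 17148264. Its peak in replicate 1 had a fold of 4.59 and 178 fragments, beginning 96 bp beyond the higher end beside Chchd2. In replicate 2 the peak lay inside the gene with a fold of 1.77 and 68 fragments, 195 bp from the other. RpL35, whose protein sits near the tunnel by which the nascent chain leaves the ribosome, lies on X from 5672401 to 5673547. The peak of replicate 1 (fold 1.87, 72 fragments) stopped 92 bp before the lower end, and that of replicate 2 (fold 2.41, 93 fragments) lay inside the gene, 183 bp further on. The replicates therefore gave no shared interval at either gene.

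Across all 10 members hit in both Zelda-GFP damaged lists, the highest peaks of the 2 replicates shared at least 1 bp at 7. Further peaks, such as those at RpS4, were not compared. The 10 genes were 10.9% of the members, against 11.8% of all genes, and made up 55.6% of the members hit in replicate 1 and 41.7% of those in replicate 2. Over all genes these shares were 72.3% and 67.0%. Besides the 6 genes above they included RpLP1, RpS13 and RpS4, each also hit in wild-type damaged replicate 2. RpS13, which encodes a small subunit protein, was hit in the most lists. The folds were 3.66 and 2.29 after damage with the tag, 1.70 in Zelda-GFP undamaged replicate 1 and 1.72 in wild-type damaged replicate 2. Its summit in Zelda-GFP damaged replicate 1 was 1447 bp outside the gene, inside Pp2A-29B.

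RpS4, another small subunit gene, had folds of 2.18 and 4.65 in the tagged damaged libraries. These highest peaks flanked opposite ends of the gene with summits 3202 bp apart. Zelda-GFP damaged replicate 2 had 3 peaks in the window of RpS4, and another of them reached the gene span. In wild-type damaged replicate 2 the peak of RpS4, of fold 1.74, was inside the gene. RpLP1 encodes one of the acidic stalk proteins that engage translation factors. Its folds were 1.74 and 1.78 in the tagged damaged lists and 1.76 in wild-type damaged replicate 2, where the summit was at the same base as in Zelda-GFP damaged replicate 2. These highest peaks began 108 to 207 bp beyond the higher end of RpLP1, with their summits inside CG11885. Zelda-GFP damaged replicate 2 and wild-type damaged replicate 2 each had 2 peaks in the window.

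RpLP2, the partner of RpLP1 in the stalk, was the only member hit in both wild-type damaged lists (1.09%, against 4.12% of all genes). Its fold was 2.23 in Zelda-GFP damaged replicate 2, against 1.82 and 2.93 in wild-type damaged replicates 1 and 2, and the peaks were over the gene itself in all 3. The value of 2.93 was the highest fold of any member within wild-type damaged replicate 2. Wild-type damaged replicate 2 shared 7 members with wild-type undamaged replicate 2, or 21.2% of the members hit in the damaged list and 38.9% of those in the undamaged list. Over all genes these shares were 23.8% and 54.1%. The shared members were RpL4, RpL23A, RpL24, RpL24-like, RpL34b, RpS15 and RpS21. RpS21, a small subunit gene, had a fold of 2.15 in Zelda-GFP damaged replicate 2, against 2.15 in wild-type damaged replicate 2 and 1.64 in wild-type undamaged replicate 2. RpL24-like, which is related to the large subunit gene RpL24, had 1.64 in Zelda-GFP undamaged replicate 1, against 2.05 in wild-type damaged replicate 2 and 2.08 in wild-type undamaged replicate 2. Both genes thus had peaks with and without the tag. The 7 were chosen after their values were seen.

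**Figure D2:**
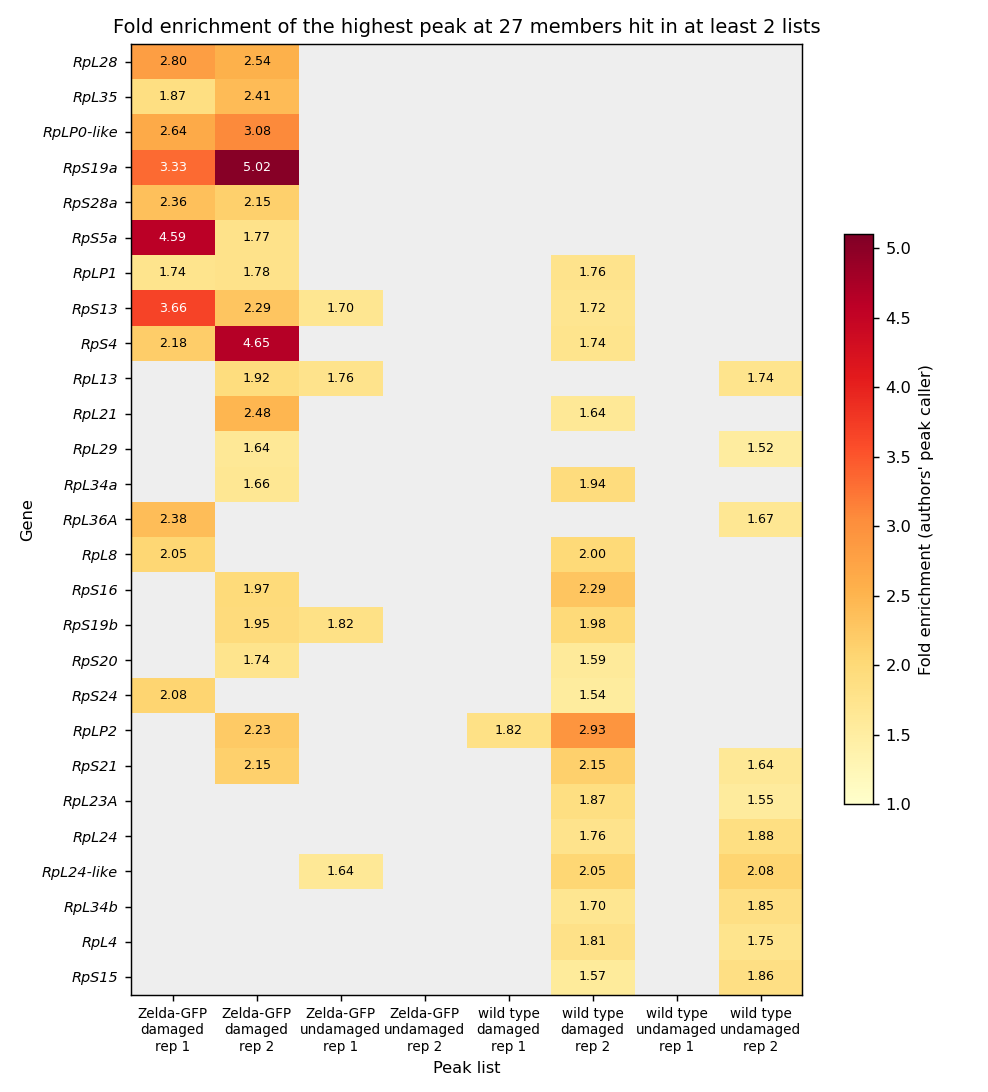
Fold enrichment by the authors' peak caller (colour and number, linear scale) of the highest peak at 27 of the 28 RpL and RpS genes hit in at least 2 lists (rows) in the 8 peak lists (columns); grey marks no peak within the gene span plus 500 bp. The first 6 rows have values in the Zelda-GFP damaged columns alone, and Zelda-GFP undamaged replicate 2 and wild-type undamaged replicate 1 have no value.

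At a fold of at least 3, members were hit in the Zelda-GFP damaged lists alone, at shares near those of all genes. Peaks with a fold of at least 3 hit 4 members (4.35%) in Zelda-GFP damaged replicate 1, namely RpS19a, RpS5a, RpS13 and RpS6, and 3 members (3.26%) in replicate 2, namely RpS19a, RpS4 and RpLP0-like. No member was hit at that fold in any of the other 6 lists, where at most 0.46% of all genes were. A count of 0 among 92 members therefore says little, and the lists were not shown to share a fold scale. The shares of all genes were 3.41% and 3.78% in Zelda-GFP damaged discs, 0.431% and 0.46% in Zelda-GFP undamaged discs, 0.352% and 0.445% in wild-type damaged discs and 0.453% and 0.395% in wild-type undamaged discs. RpS6, whose protein is phosphorylated downstream of TOR signalling, had a fold of 3.54 in replicate 1, with its peak beside bys. The median fold of the members' highest peaks was 2.37 and 2.15 in Zelda-GFP damaged discs, where all genes hit had 2.28 and 2.26. In wild-type damaged replicate 2 it was 1.86, equal to that of all genes hit, and in wild-type undamaged replicate 2 it was 1.74 against 1.77.

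The position of the peaks differed between lists. In Zelda-GFP damaged replicate 1 the highest peak reached the gene span itself at 4 of the 18 members hit, and the summit was inside the gene at 2. In replicate 2 these counts were 15 and 14 of 24. Zelda-GFP undamaged replicate 1 had 3 and 3 of 7. Wild-type damaged replicate 2 had 17 and 16 of 33, and wild-type undamaged replicate 2 had 15 and 14 of 18. RpL5, RpS26 and RpL23A, 3 members picked after their values were seen, had their summits 935 to 1003 bp inside the gene in wild-type undamaged replicate 2. Many ribosomal protein genes host small nucleolar RNAs in their introns. The highest peak lay within 500 bp of a tRNA, snoRNA or snRNA gene in 4 of 42 hits of Zelda-GFP damaged discs. The counts were 0 of 7 in Zelda-GFP undamaged replicate 1 and 5 of 34 in wild-type damaged discs. Wild-type undamaged replicate 2 had 6 of 18. The share over all genes hit was not computed. With the gene span alone, 4 and 17 members were hit in the Zelda-GFP damaged lists, 3 and 0 in the Zelda-GFP undamaged lists, 1 and 19 in the wild-type damaged lists and 0 and 16 in the wild-type undamaged lists. All genes then had 11.8% and 13.3% in Zelda-GFP damaged discs, 6.44% and 2.63% in Zelda-GFP undamaged discs, 4.23% and 15.8% in wild-type damaged discs and 2.61% and 8.38% in wild-type undamaged discs. Between the Zelda-GFP damaged replicates, the members' shares over gene spans, 4.35% and 18.5%, lay further apart than those of all genes.

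**Figure D3:**
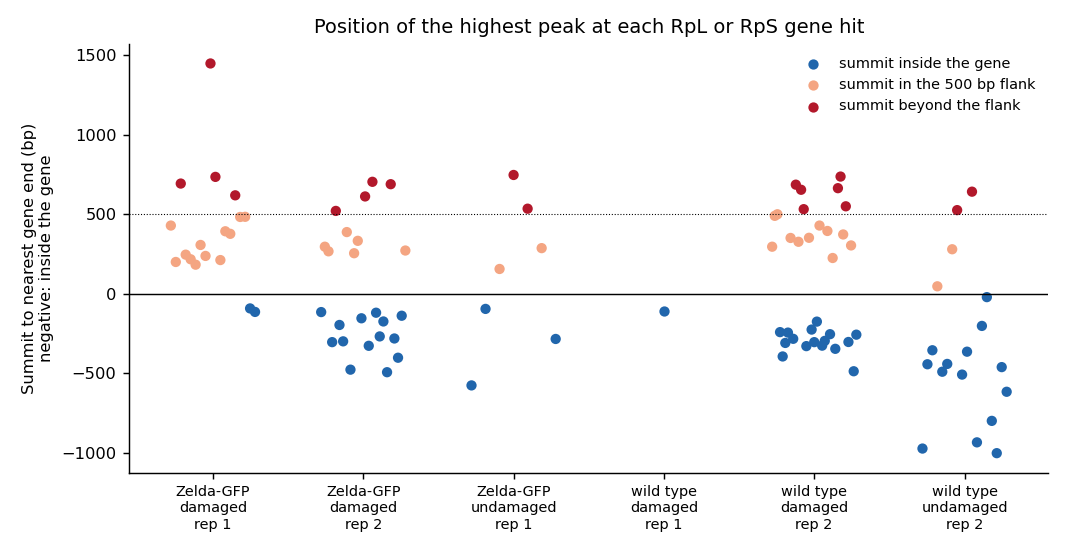
Distance in bp from the summit of the highest peak to the nearest end of each RpL or RpS gene hit (vertical axis, negative inside the gene, dotted line at 500 bp), for the 6 peak lists with a hit (horizontal axis); each point is 1 gene and points are spread sideways for legibility. Most points of Zelda-GFP damaged replicate 1 lie above 0, with 2 of 18 inside a gene, and most of wild-type undamaged replicate 2 lie below 0, with 14 of 18 inside.

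Members are short, with a median span of 1315 bp against 2163 bp for all genes. Windows of 500 bp on each side of either gene end were also used, and these overlap in the shortest genes. There 18 and 24 members (19.6% and 26.1%) were hit in Zelda-GFP damaged discs, where all genes had 13.1% and 14.2%. In wild-type damaged discs 1 and 33 members (1.09% and 35.9%) were hit, against 2.8% and 18.8%. Zelda-GFP undamaged discs had 7.61% and 0.0% of members, against 4.62% and 1.23% of all genes. Wild-type undamaged discs had 0.0% and 14.1%, against 1.27% and 5.37%. Many members also lie close to other genes. Of the 42 hits in Zelda-GFP damaged discs, 36 had a peak that also overlapped the window of another protein-coding gene, and 15 had their summit inside another gene. Of the 34 hits in wild-type damaged discs these counts were 28 and 13. When peaks with a summit inside another gene were left out, an alternative added after the data were seen, 13.0% and 18.5% of members were hit in Zelda-GFP damaged discs, 4.35% and 0.0% in Zelda-GFP undamaged discs, 1.09% and 22.8% in wild-type damaged discs and 0.0% and 17.4% in wild-type undamaged discs. All genes then had 13.4% and 13.6% in Zelda-GFP damaged discs, 6.58% and 2.69% in Zelda-GFP undamaged discs, 4.44% and 16.4% in wild-type damaged discs and 2.72% and 8.55% in wild-type undamaged discs. RpL12 and RpL39 are neighbours that were called through 1 shared peak in Zelda-GFP undamaged replicate 1, so the 7 members hit there stand for 6 peaks. How reads from near-identical copies, such as RpS14a and RpS14b, were placed is not given in the sources used here.

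Members on X were set beside those on the other arms, a split chosen after the values were seen. Of the 14 members on X, 7 and 4 were hit in the Zelda-GFP damaged lists (50.0% and 28.6%), 0 and 0 in the Zelda-GFP undamaged lists, 0 and 1 in the wild-type damaged lists and 0 and 0 in the wild-type undamaged lists. The single wild-type hit was RpS14b, with a fold of 2.15. The 8 genes hit in at least 1 Zelda-GFP damaged list (57.1%) were RpL22, RpL35, RpL36, RpS5a, RpS6, RpS15Aa, RpS19a and RpS28b. That rule was met by 21.5% of all genes on X, and by 30.8% of members and 22.3% of all genes on the other arms. Of the peaks at X members in Zelda-GFP damaged replicate 1, only that at RpL36 reached the gene itself. Those at RpL35, RpS5a, RpS6, RpS15Aa, RpS19a and RpS28b stopped 84 to 483 bp short. In replicate 2 the peaks at RpL35 and RpS5a reached the gene, and those at RpL22 and RpS19a stopped 224 and 496 bp short. The wild-type peak at RpS14b lay inside its gene. On the other arms, 11 and 20 of 78 members had hits in the tagged damaged libraries (14.1% and 25.6%), 7 and 0 in the tagged undamaged ones, 1 and 32 in wild-type damaged discs and 0 and 18 in wild-type undamaged discs.

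All protein-coding genes showed part of the same pattern. On X, 16.3% and 17.4% were hit in Zelda-GFP damaged discs, against 3.82% and 7.15% in wild-type damaged discs. On the other arms the shares were 16.4% and 17.7% in Zelda-GFP damaged discs, against 5.54% and 25.1% in wild-type damaged discs. In undamaged discs, 3.6% and 3.32% of genes on X were hit with Zelda-GFP and 3.55% and 2.5% in wild type, while on the other arms these shares were 8.55% and 2.92% with Zelda-GFP and 2.91% and 11.2% in wild type. Shares on X were thus well below those on the other arms over all genes in wild-type damaged replicate 2, wild-type undamaged replicate 2 and Zelda-GFP undamaged replicate 1. With lists of equal length, 4 and 2 of the 14 X members were hit in Zelda-GFP damaged discs and 0 and 1 in wild-type damaged discs. The sex of the larvae, which sets the number of X copies, is not given in the sources used here, and its part in these counts was not tested.

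**Figure D4:**
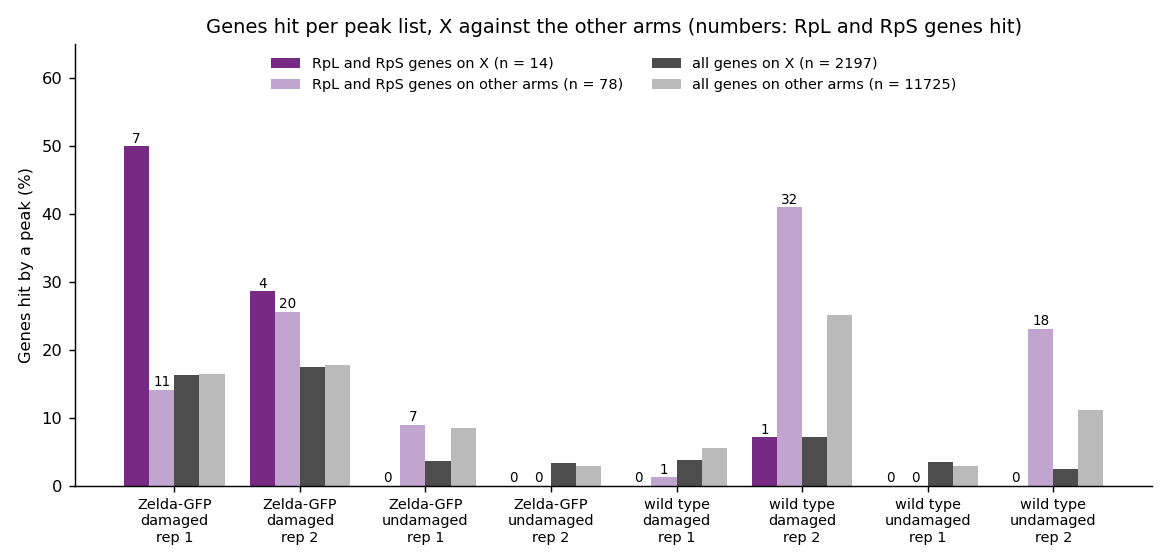
Percent of genes hit by a peak (vertical axis) in each of the 8 peak lists (horizontal axis), for RpL and RpS genes on X and on the other arms and for all protein-coding genes on X and on the other arms; numbers count the RpL and RpS genes hit. The X members have 7 and 4 hits in the Zelda-GFP damaged lists and 1 hit in all wild-type lists together, while the members on the other arms reach 32 hits in wild-type damaged replicate 2.

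Both subunits were represented. In Zelda-GFP damaged discs 9 and 12 of the 54 RpL genes were hit (16.7% and 22.2%) and 9 and 12 of the 38 RpS genes (23.7% and 31.6%). Zelda-GFP undamaged discs had 5 and 0 RpL genes and 2 and 0 RpS genes hit. In wild-type damaged replicate 2 the counts were 19 RpL genes (35.2%) and 14 RpS genes (36.8%), and in wild-type undamaged replicate 2 they were 13 (24.1%) and 5 (13.2%). The small subunit protein gene sta, which the symbol rule does not take, was hit in none of the 8 lists.

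Other genes of translation gave a setting for these counts, from lists chosen with earlier results of these data known. Mitochondrial ribosomal protein genes, which serve the organelle's own ribosomes, were hit at 19.2% and 23.3% of 73 in Zelda-GFP damaged discs, 2.74% and 0.0% in Zelda-GFP undamaged discs, 5.48% and 47.9% in wild-type damaged discs and 0.0% and 5.48% in wild-type undamaged discs. Initiation and elongation factor genes were hit at 32.7% and 30.8% of 52 in Zelda-GFP damaged discs, 7.69% and 3.85% in Zelda-GFP undamaged discs, 3.85% and 30.8% in wild-type damaged discs and 1.92% and 7.69% in wild-type undamaged discs. The damaged tag rule was met by 6 of the 73 mitochondrial ribosomal protein genes (8.22%), led by mRpS26 with folds of 3.02 and 4.10, mRpL39 with 4.79 and 1.84 and mRpS16 with 2.05 and 2.60. It was met by 5 of the 52 factor genes (9.62%), led by eIF3b with folds of 2.92 and 3.02, eIF4H1 with 2.38 and 5.23 and eIF1A with 2.23 and 2.69. Among 13 ribosome biogenesis genes it was met by pes alone, with folds of 2.38 and 2.97. Of these 13 genes, 23.1% and 15.4% were hit in Zelda-GFP damaged discs, 15.4% and 7.69% in Zelda-GFP undamaged discs, 7.69% and 38.5% in wild-type damaged discs and 0.0% and 15.4% in wild-type undamaged discs. Wild-type damaged replicate 2 hit both kinds of ribosomal protein gene, the biogenesis genes and all protein-coding genes (22.3%) more often than either Zelda-GFP damaged list did.

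A test of each gene's hit calls in 4 Zelda-GFP against 4 wild-type lists was run over the 5460 protein-coding genes hit in at least 1 list, 63 of them members. No member and no other gene passed at an adjusted p of 0.05 (exact two-sided permutation test over libraries with Benjamini-Hochberg adjustment). The smallest p this design allows is 0.0286, so a gene could pass after adjustment only if most of the genes tested reached it. At an unadjusted p under 0.05 there were 28 genes (0.513%) and 0 members, and the smallest unadjusted p of a member was 0.429. A p under 0.05 needs hits in all 4 lists of 1 genotype and in none of the other. No member could have it, since Zelda-GFP undamaged replicate 2 and wild-type undamaged replicate 1 hit no member.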

How the data were processed

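CUT&RUN libraries of 8 wing disc samples in 4 groups of 2 were analysed from 1 deposited peak list per library. Per the submitters' processing notes, the tools were bcl2fastq 2.20, Bowtie2, SAMtools, Picard, deepTools and MACS2, and the build was dm6. Peak names record duplicate marking, and the use of a control in calling is not given in the sources used here. The authors deposited each peak's fold enrichment, a linear ratio, and the −log10 of its p-value and q-value. The deposited score column restates the q-value and served only as a format check. The lists give no read totals. A summit coverage came out whole (tolerance 0.05) for 100.0% of the peaks in each list, rounded, from the authors' fold, taken with 1 added to both coverages, and p-value, taken as a Poisson upper tail.

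Gene symbols and spans came from RefSeq's table of the Release 6 assembly, the same assembly as dm6, for protein-coding genes on arms 2L, 2R, 3L, 3R, 4 and X. A gene was hit when a peak shared at least 1 bp with its span plus 500 bp on each side. Each gene's highest-fold peak supplied its fold, summit and position. Hit shares were given per list and as mean ± SD of 2 lists. The members and lists were chosen with earlier results of these data known, so shares over the members carry no p-value. A single test, per gene over all genes, was an exact permutation test over libraries, checked on simulated data, in Python 3.11.15 with scipy 1.17.1. Nothing in the labels says that replicates came from separate animals, so spreads may be technical. Named genes were those meeting the damaged tag rule, those hit in both wild-type damaged lists or in all lists, and the 3 leading genes of each comparison list. Others were chosen after their values were seen. Single-gene values of a few genes are not reported here, but these genes stay in all counts. No sequence is shown.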

Additional observations from a re-analysis of the deposited data

How the results depend on the processing

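Hit shares of the ribosomal protein genes were recomputed with other windows, overlaps, filters and libraries. The tag difference in damaged discs (4.35 points) stayed between 0.543 and 4.89 points under the 7 planned window, overlap and filter settings, and ran from -13.0 to 21.7 when 1 library was left out, with the negative value without wild-type damaged replicate 1. The tag difference in undamaged discs (-5.98 points) was 0.0 with peaks of fold at least 3, from -7.61 to -1.63 under the other planned settings, and from -15.8 to 3.8 when 1 library was left out. The damage difference in wild-type discs (8.7 points) was 0.0 with peaks of fold at least 3, from 2.17 to 13.6 under the other planned settings, 3.26 with summits in another gene left out, and from -8.7 to 26.1 when 1 library was left out. Its value without wild-type undamaged replicate 1 was -1.09. The damage difference in Zelda-GFP discs (19.0 points) stayed positive under every setting run. It was 9.78 with the gene span alone, 26.1 with a flank of 2000 bp, 3.8 with peaks of fold at least 3 and 10.3 with lists of equal length. With peaks whose summit was in another gene left out, a setting added after the data were seen, it was 13.6. Leaving out 1 library gave 15.2 to 22.8.

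The count of 6 members in both Zelda-GFP damaged and neither wild-type damaged list was 2 with the gene span alone (RpS28a and RpS13; 4.55% of all genes), 1 with peaks of fold at least 3 (RpS19a; 1.46%) and 2 with summits in another gene left out (RpL35 and RpS5a; 4.64%). It was 13 without Zelda-GFP damaged replicate 1 (9.05% of all genes), 12 without Zelda-GFP damaged replicate 2 (8.24%), 10 without wild-type damaged replicate 2 (8.8%) and 6 without wild-type damaged replicate 1 (5.87%), since fewer lists loosen the rule. The cause of the other changes was not tested. The design is too small for single genes to pass the per-gene test after adjustment, so its counts of 0 say nothing about stability. With the replicate number as a block, the count was 0 members and 0 genes at an unadjusted p under 0.05, since the smallest possible p was then 0.0556. Shared replicate numbers are not said to mark a shared animal or day. With 2 libraries a group and no read totals, neither a small difference nor its absence could be shown.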
